A study of Mus musculus with 109 samples.

Results

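The 115 genes described here were lower in brain microglia 6 h after a peripheral injection of lipopolysaccharide (LPS), were back near their untreated level at 48 h in control mice, and were still low at 48 h in mice whose microglia lack the interleukin-10 receptor gene Il10ra. They are 115 of the 12798 genes in the table of Il10ra mutants and controls. They were chosen by measured values, as group means of log2(normalised reads + 1). The control mean at 6 h had to lie at least 1.5 below the untreated control mean, the control mean at 48 h no more than 0.75 below it, and the Il10ra mutant mean at 48 h at least 1.5 below the untreated mutant mean. The untreated control mean also had to reach 20 normalised reads. Of the 12798 genes 6758 reached that level, 459 of these met the limit at 6 h, and 239 of those also met the limit for controls at 48 h. Of the genes that met every criterion 13 were left out by name (symbols starting Slc, P2r or Rab, and names made of Gm and digits or holding Rik). The levels of untreated, 6 h and 48 h Il10ra controls and of untreated and 48 h Il10ra mutants therefore chose the genes, and they are given below as a description with no test.

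Microglia were sorted from mouse brain by their CD45 and CD11b, and their RNA was read at the 3' end of transcripts by MARS-seq. Mice were untreated or had received 2.5 mg/kg LPS intraperitoneally 6, 24 or 48 h or 7 days earlier. Il10ra mutants (CX3CR1-CreER:IL10Rafl/fl) are represented by 9 untreated libraries, 7 at 6 h, 5 at 24 h and 5 at 48 h. For their controls (IL10Rafl/fl, no Cre) there were 6 libraries without LPS, 6 at 6 h, 4 at 24 h, 6 at 48 h and 4 at day 7. Double mutants of Il10ra and Tnf (CX3CR1-CreER:IL10Rafl/fl:TNFfl/fl) are represented by 5 untreated libraries, 6 at 6 h and 4 at 48 h, and their controls (IL10Rafl/fl:TNFfl/fl, no Cre) by 6, 5 and 6. Untreated wild-type C57BL/6 mice gave 4 libraries. Every group but the last carries floxed Il10ra. The mutants also carry a Cre recombinase expressed from the Cx3cr1 locus, a gene used by microglia and by other macrophages, and the controls do not, so Cre and deletion cannot be told apart. The sources used here give neither ages nor the induction of the Cre. Per the labels, double mutants and their controls come from 2 experiments, called first and second here, as do the 24 h libraries. The 6 h and 48 h libraries of Il10ra mutants and of their controls come from different experiments. The column of untreated double mutant library 4 carries the word mistake, while its title does not, and it was kept. All 115 genes were also measured in the table of double mutants, which holds 13390 genes, and all 115 passed the filter on low values in both tables.

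Interleukin-10 is a cytokine that restrains macrophage activation through the receptor that Il10ra helps to build and the transcription factor Stat3. Tumour necrosis factor, the product of Tnf, is an inflammatory cytokine that activated microglia themselves make. Microglia exposed to an inflammatory signal typically lower the genes of their resting programme and can restore them later.

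To show how the start of such a gene can look, promoters were read from RefSeq sequences (build GRCm38.p6) from 250 bases before to 50 after the gene start. Of the 115 genes 91 had at least 1 promoter there. The motif of MEF2, a family of transcription factors active in microglia and held in check by class IIa histone deacetylases such as Hdac5, was found in promoters of 3 of these 91 genes (3.3%) and of 46 of 8690 genes tested that have a promoter there (0.529%). These 3 promoters are printed because they hold the only MEF2 matches among the 91 genes searched, and the capitals mark the match. The match in Hspb3 also holds TATAAA, the letters of the TATA box. Both strands were searched. The match began 72 bases before the gene start in Capn3, a calpain protease gene, 20 before it in Hdac5, and 12 before it in Hspb3, a small heat shock protein gene.
Capn3, chr2:120463343-120463642, + strand: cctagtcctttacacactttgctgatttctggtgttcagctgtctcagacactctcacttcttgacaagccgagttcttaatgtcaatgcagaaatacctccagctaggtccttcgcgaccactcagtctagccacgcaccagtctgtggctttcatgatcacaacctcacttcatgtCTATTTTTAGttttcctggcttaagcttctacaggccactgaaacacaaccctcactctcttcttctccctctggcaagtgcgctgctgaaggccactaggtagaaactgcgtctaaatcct
Hdac5, chr11:102230123-102230422, - strand: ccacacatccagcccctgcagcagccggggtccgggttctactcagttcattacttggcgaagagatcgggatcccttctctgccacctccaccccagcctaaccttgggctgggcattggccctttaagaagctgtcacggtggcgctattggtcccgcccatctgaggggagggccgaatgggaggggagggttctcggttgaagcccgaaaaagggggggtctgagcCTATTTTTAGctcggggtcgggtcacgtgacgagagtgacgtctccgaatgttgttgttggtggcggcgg
Hspb3, chr13:113663627-113663926, - strand: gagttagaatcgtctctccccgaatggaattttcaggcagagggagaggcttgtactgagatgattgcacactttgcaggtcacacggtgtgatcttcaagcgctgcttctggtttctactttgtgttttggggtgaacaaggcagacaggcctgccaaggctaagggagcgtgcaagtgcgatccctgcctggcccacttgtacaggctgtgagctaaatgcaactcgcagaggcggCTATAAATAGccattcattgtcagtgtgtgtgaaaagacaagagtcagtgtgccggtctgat

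The other motifs searched, on both strands, stood in a smaller share of the promoters of these 91 genes, some of which have several, than of all 11125 promoters of genes tested. GGAAGT, the core of PU.1 sites, stood in 26.2% of them and in 29.4% of all. The E-box CACGTG, bound by Mitf and its relatives, stood in 4.92% and in 10.2%, the motif of interferon regulatory factors in 1.64% and in 3.36%, and the TATA box TATAAA in 4.1% and in 6.98%. Their median GC content was 60.7%, the same as that of all promoters, and their median count of CpG was 15, against 21. These shares are descriptions, and a match is not a binding site. The genes lay on 20 chromosomes, with at most 11 on a chromosome (chromosome 11), and 1 gene had no position in the annotation. Their median gene length was 36569 bases, against 21046 bases for all genes tested. Neighbours among them were Zfp710 and Idh2, 2094 bases apart on chromosome 7, and Cmtm7 and Cmtm8, 7350 bases apart on chromosome 9. Pisd-ps1 and Sfi1 overlap on chromosome 11, and reads from these 2 genes cannot be told apart with certainty.

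The fall and the return can be seen library by library. For each library, the median over the 115 genes of its log2 difference from the untreated control mean was taken. In Il10ra mutants this median lay between -2.23 and -1.75 at 6 h, between -2.38 and -1.85 at 24 h and between -2.34 and -1.63 at 48 h. In their controls it lay between -2.13 and -1.83 at 6 h, between -2.16 and -0.81 at 24 h and between -0.50 and -0.16 at 48 h, and at day 7 between -0.03 and 0.08. Untreated mutants lay between -0.05 and 0.03. The mutant and control libraries overlapped at 6 h and did not overlap at 48 h, the difference for which the genes were chosen. Day 7 libraries come from an experiment of their own, so experiment and time cannot be told apart there. Over the genes, the median difference of day 7 from untreated controls was 0.01, with 6 genes below every untreated library (2.6% of all genes were) and 5 above (4.22%).

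**Figure D1:**
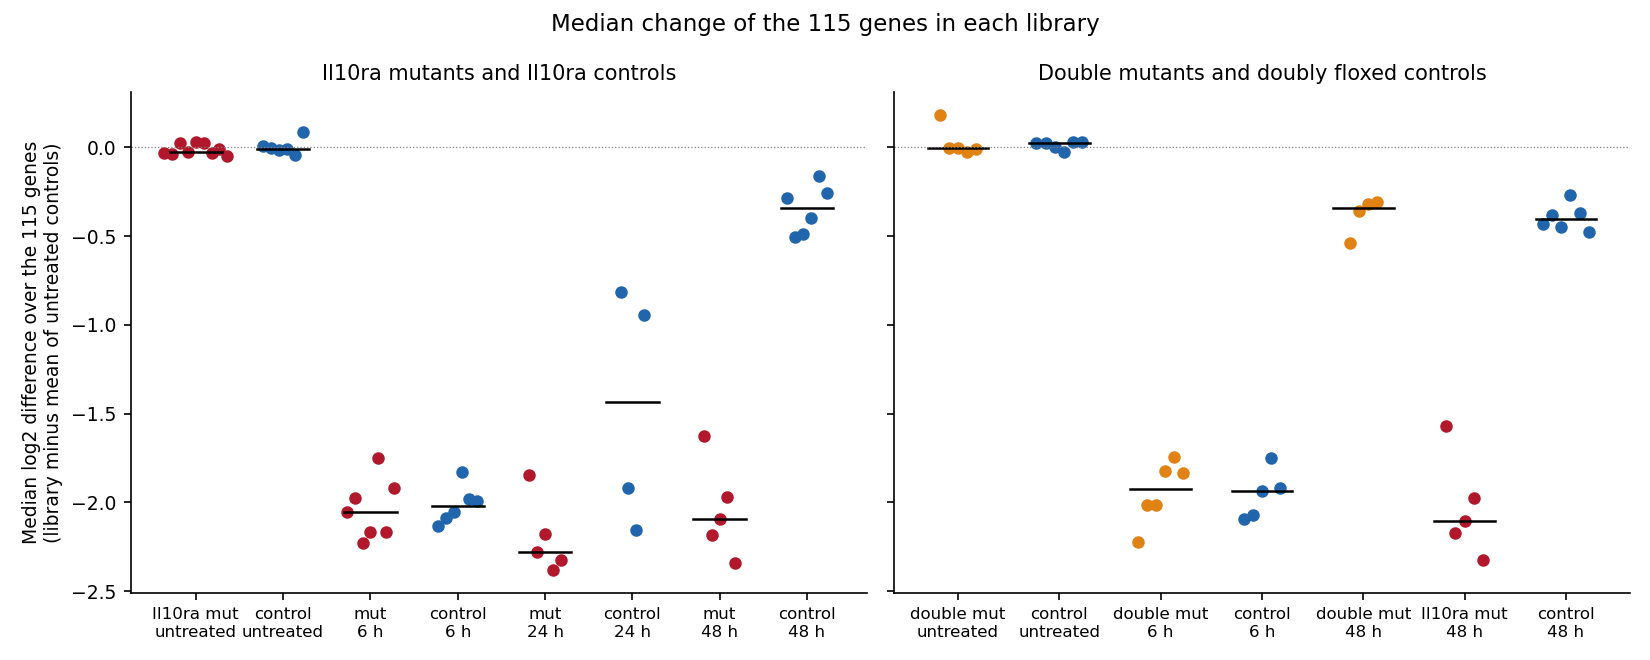
Median over the 115 genes of the log2 difference from untreated controls (vertical axis, log2) for every library, 1 point each, by genotype and time after LPS. Il10ra mutants stay between -2.34 and -1.63 at 48 h, while double mutants at 48 h lie between -0.54 and -0.31, beside their controls.

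The genes that only just qualified were close to those that only just did not. At 6 h St3gal5 (-1.502) stood inside the limit and Selenop (-1.49) outside it. At 48 h in controls Anks6 (-0.748) stood inside and Numb (-0.752) outside, and at 48 h in Il10ra mutants Ctdsp2 (-1.51) stood inside and Sirpa (-1.49) outside. Among low genes Ceacam1, with an untreated mean of 20.4 normalised reads, was kept and Bphl, with 19.8, was not. With a pseudocount of 5 in place of 1 the rule gave 82 genes, 73 of them among the 115. Without the 2 Il10ra mutant 48 h libraries that were prepared with the double mutants it gave 104 genes, 96 of them among the 115. Hacd4, a member of the family of very-long-chain fatty acid dehydratases, stood at -4.13 log2 from the untreated level in Il10ra mutants at 48 h. In bulk RNA fewer cells of a type and less RNA per cell cannot be told apart.

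The targeted genes followed the labels. Il10ra gave 7.14 to 76.4 normalised reads in the 15 double mutant libraries, against 237 to 533 in the 17 libraries of their controls, and the ranges did not overlap. Tnf gave 4.39 to 9.27 normalised reads in double mutants at 48 h, against 71.5 to 246 in their controls, and 482.2 to 2439 in Il10ra mutants at the same time. Cx3cr1, whose locus carries the Cre, was lower in untreated double mutants than in controls by a log2 of -1.34 (limma, adjusted p = 0.000363). At 48 h only 2 of all 11800 genes passed as lower, Il10ra and Tnf, so Cx3cr1 did not pass there. Libraries held from 540642 to 2489084 recovered reads. Summed microglial identity genes stood at 54672 to 71968 normalised reads in double mutants at 48 h, 42017 to 71660 in Il10ra mutants and 57206 to 82361 in doubly floxed controls. Summed neutrophil markers, such as S100a8, ran from 19.0 to 928, from 29.2 to 1364 and from 48.9 to 1390 in the same groups. Ly6g and Mpo, defining neutrophil markers, are not in the table of double mutants. Summed monocyte markers ran from 249 to 579, from 46.02 to 215 and from 168 to 501, and from 13.6 to 50.8 in untreated controls. Summed border macrophage markers, such as Mrc1, ran from 28.5 to 126.4 with a median of 100.6 in double mutants at 48 h. In Il10ra mutants they ran from 14.8 to 31.1 with a median of 25.8. In controls they ran from 28.5 to 236 with a median of 77.1. Lyve1 was at 0 in all 5 Il10ra mutant libraries, and also in all 5 libraries of doubly floxed controls at 6 h. Summed endothelial markers ran from 23.8 to 63.2, from 7.40 to 17.4 and from 15.7 to 42.1 in double mutants, Il10ra mutants and controls. Monocyte and endothelial sums did not overlap between double mutants and Il10ra mutants. Of all single genes, 13.8% were so separated with double mutants above. The markers of a list did not all move together. At 48 h against untreated double mutants, of 2 endothelial markers tested Kdr was at 1.34 and Pecam1 at -1.35 (limma, log2). Of 8 monocyte markers tested 3 were higher and 0 lower, where 11.2% of all genes were higher and 6.86% lower. The part of these other cells in the results was not tested.

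At 6 h the fall was present again in mice that the choice of genes had not used. In double mutants all but 2 of the 115 genes were lower at 6 h than untreated and 0 were higher (limma, adjusted p under 0.05), with a median log2 change of -1.91. Of all 11800 genes tested 21.5% were lower and 22.8% higher. In doubly floxed controls all but 3 were lower and 0 higher, with a median of -1.95, where 21.1% of all genes were lower and 21.6% higher. The genes that did not pass were Rida and Cysltr1 in double mutants, and Rida, Fuz and Ccdc191 in controls, and their log2 changes ran from -0.64 to -0.12. Across the 115 genes the 6 h changes of the mutants and of the controls, as plain differences of group means, had a Pearson r of 0.866. Mutant and control libraries are separate, but within each genotype all genes come from the same libraries, so r is a description. Between double mutants and controls at 6 h, 0 of the 115 passed in either direction (limma, with 13 at an unadjusted p under 0.05, and 0 with edgeR and with DESeq2), where 0.0424% of all genes were lower and 0.0254% higher. Untreated, the count was also 0 by limma, edgeR and DESeq2, with 2 at an unadjusted p under 0.05, where 0.0254% of all genes were lower and 0% higher.

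Susd3, a membrane protein with a sushi domain, had among the deepest falls. It gave 24.6, 40.4 and 97.1 normalised reads (lowest, median, highest) in double mutants at 6 h and 440, 579 and 918 in untreated double mutants. In doubly floxed controls it gave 24.2, 37.4 and 54.1 at 6 h and 411, 537 and 610 untreated. Each 6 h library lay below each untreated one, with log2 changes of -3.59 ± 0.19 in mutants and -3.70 ± 0.19 in controls (limma, SE, adjusted p = 7.61e-18 and 2.84e-18). Nrp1, a co-receptor for semaphorins and for vascular endothelial growth factor, gave 5.71, 9.53 and 15.4 in double mutants at 6 h and 23.4 to 131 untreated, and 4.66 to 11.1 in controls at 6 h and 59.9 to 113.4 untreated. Its libraries were separated as well, by -2.64 ± 0.31 in mutants and -3.21 ± 0.30 in controls (adjusted p = 2.92e-09 and 2.04e-11). Such separation was not special to these genes, as most of the 115 had it in both genotypes. Every 6 h library also lay below every untreated one for 10.5% of all genes in double mutants and 13.9% in doubly floxed controls.

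The comparison on which these genes turn is that of 48 h with and without microglial Tnf, in microglia that lack Il10ra in both cases. Where Tnf was deleted too, the 115 genes stood near the level of their controls. Their median stood 1.68 log2 higher in double mutants at 48 h than in Il10ra mutants at 48 h. For 103 of the 115 every double mutant library lay above every Il10ra mutant library, against 13.8% of all genes. The Il10ra mutant libraries were used to choose the genes, so no test is given for this difference. Of these 5 libraries 3 come from another experiment. Within the experiment that holds 2 libraries of each genotype, the median difference was 1.73 and 0 genes were lower in double mutants.

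Against controls, double mutants can be tested. At 48 h 0 of the 115 genes were lower and 0 higher in double mutants than in doubly floxed controls (limma, with 1 at an unadjusted p under 0.05; edgeR and DESeq2 also gave 0), where 0.0169% of all genes were lower and 0% higher. The median difference was -0.01 and the range -0.59 to 0.47. For 104 of the 115 the 95% confidence interval lay within 1 log2 of 0, and for 8085 of all 11800 genes. By experiment the median was 0.11 in the first (45 genes lower) and -0.09 in the second (75 lower). The difference between the 48 h responses of the genotypes, fitted as an interaction, passed for 0 genes with limma, edgeR and DESeq2, as for 0% of all genes, and 1 gene had an unadjusted p under 0.05. That gene was Zfp950, a zinc finger gene, with a difference of 0.78 ± 0.35 (SE, limma, adjusted p = 1.00). Next in order of p were Pmp22, Dock8, Arhgef6, Col6a3, Actn1, Pisd-ps1 and Fuz, with differences from -0.74 to 0.57. A missed threshold does not show that the genotypes respond alike.

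**Figure D2:**
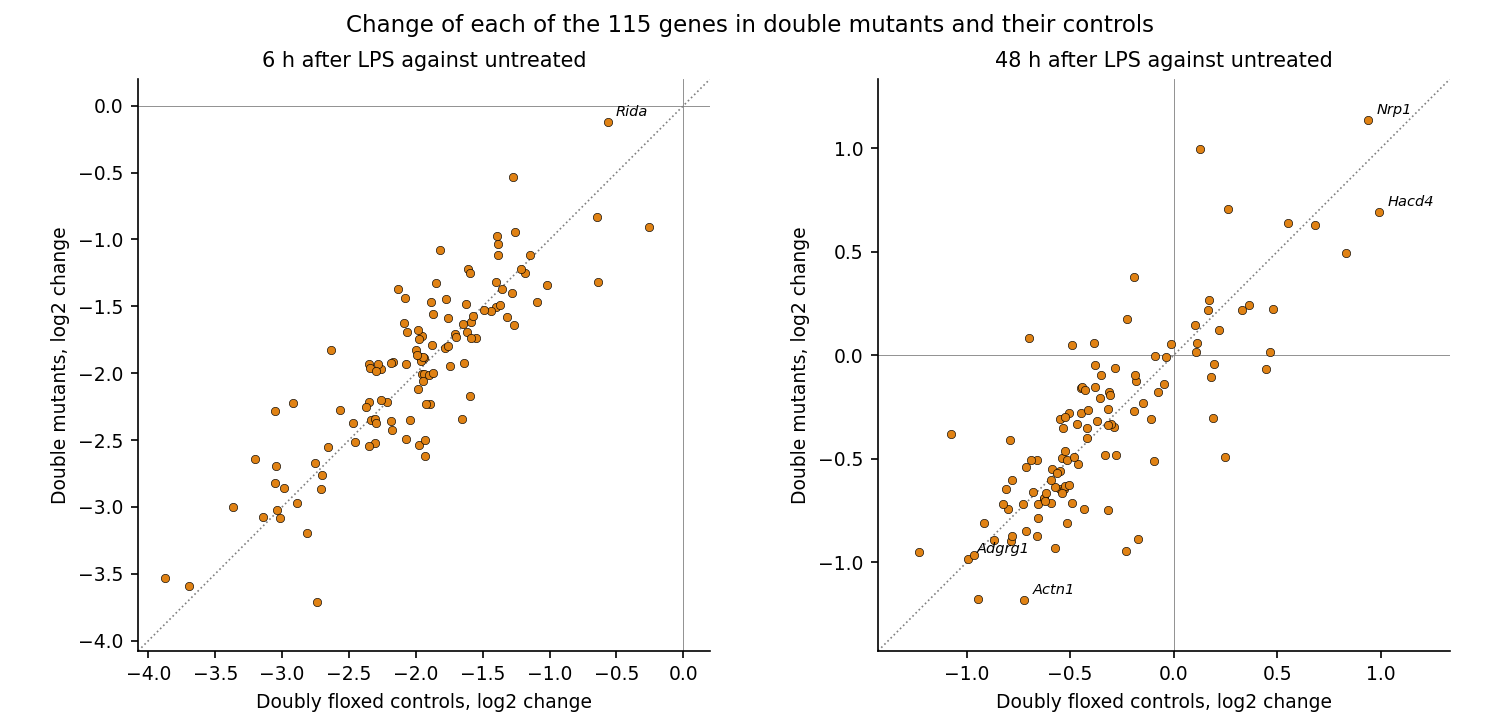
Log2 change from untreated of each of the 115 genes in double mutants (vertical axis) against that in doubly floxed controls (horizontal axis), at 6 h on the left and 48 h on the right, 1 point per gene, with the line of equal change. At 48 h Nrp1 is high in both genotypes and Adgrg1 low in both. The points are limma estimates with the experiment term. Over the 115 genes the Pearson r at 48 h, taken from plain differences of group means, is 0.806.

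Most of the 115 genes rose again between 6 h and 48 h. In double mutants all but 7 were higher at 48 h than at 6 h and 0 lower (limma), where 20.9% of all genes were higher and 18.7% lower. The median log2 rise was 1.499. In doubly floxed controls all but 8 were higher and 0 lower, with a median of 1.56, where 21.3% of all genes were higher and 18.7% lower. Against untreated mice a remainder was left. In double mutants 32 genes were still lower at 48 h and 3 higher, with a median of -0.35, where 6.86% of all genes were lower and 11.2% higher. This count of 32 was 20 without the double mutant 48 h library 1, 21 with no experiment term, 27 without untreated double mutant library 4, and 18 without the library of most neutrophil marker RNA in each group. In controls 41 were lower and 5 higher, with a median of -0.43, where 9.83% of all genes were lower and 13.8% higher. With quantile normalization the lower share among all genes called at 48 h was 48.2% in double mutants and 52.2% in controls, against 38% and 41.7% with the authors' scaling. Within the experiment with most libraries the control count was 22. Of the limits that defined the group, 71 of the 115 genes met both the 6 h and the 48 h limit in double mutants (61.7%, against 3.6% of genes of the same level). In doubly floxed controls 76 did (66.1%, against 3.56%). The 6 h limit alone was met by 75.7% of the 115 in double mutants and 80% in controls, against 6% and 6.28% of those genes. The 48 h limit alone was met by fewer of the 115 than of those genes, 83.5% against 94% in double mutants and 85.2% against 93.8% in controls. Within experiments the median change of double mutants at 48 h was -0.28 in the first and -0.54 in the second.

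Of the members, the lysosomal and lipid genes include the most abundant. Pld4, a lysosomal exonuclease of single-stranded nucleic acids, gave 1955, 2409, 2478 and 2243 normalised reads in double mutants at 48 h and 602, 334, 389, 388 and 431 in Il10ra mutants. In doubly floxed controls at 48 h it gave 2109, 2279 and 2526 (lowest, median, highest), and untreated libraries of the same mice gave 1421 to 1722. Every double mutant library lay above every Il10ra mutant library, whose low level chose the gene (13.8% of all genes were so separated). Of the 4 double mutant libraries 3 lay among the controls and library 1 lay below them, and at 48 h they stood above untreated mice. The rise over untreated mice was 0.64 ± 0.13 log2 in double mutants and 0.55 ± 0.11 in controls (limma, SE, adjusted p = 0.000479 and 0.000304). Hexa, the alpha subunit of the lysosomal beta-hexosaminidase, gave 1213, 1647, 1492 and 1468 in double mutants and 657, 393, 522, 417 and 495 in Il10ra mutants, and 1168, 1434 and 1913 in controls. Its 48 h level in double mutants differed from the untreated by 0.05 ± 0.15 (adjusted p = 0.850).

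The counts by role at 48 h stand against 6.86% of all genes lower and 11.2% higher in double mutants, and 9.83% lower and 13.8% higher in controls. Among 18 genes of lipid, glycan and lysosomal enzymes and transporters, 6 were lower at 48 h in double mutants and 1, Pld4, was higher. In controls 6 were lower and 2 higher. The lower ones in double mutants included St3gal5, a sialyltransferase of ganglioside synthesis (-0.63 ± 0.17), Dhrs3, a retinaldehyde reductase (-0.65 ± 0.18), and Pla2g15, the lysosomal phospholipase (-0.53 ± 0.19), all by limma with adjusted p from 0.00733 to 0.0468. Hacd4 was the extreme of this set. It gave 29.6, 91.4, 54.1 and 54.2 normalised reads in double mutants at 48 h and 2.13, 1.12, 1.68, 0.00 and 1.58 in Il10ra mutants, against 34.5, 71.1 and 107.98 in controls. The mutant genotypes did not overlap, a separation that 13.8% of all genes had and that the choice of genes favoured. The groups by role were formed after values were seen and get no test.

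Surface receptors and adhesion genes (19) ended both above and below the untreated level. In double mutants at 48 h 6 were lower and 2, Itga6 and Nrp1, were higher, and in controls the counts were 6 and 2. Adgrg1, an adhesion G protein-coupled receptor of resting microglia, gave 611, 657, 679 and 588 normalised reads in double mutants at 48 h and 151, 90.9, 94.1, 117 and 99.9 in Il10ra mutants, against 536, 634 and 860 in controls. Untreated it averaged 1275 ± 198 in double mutants (SD, n = 5) and 1308 ± 137 in controls (SD, n = 6). It thus stood between its Il10ra mutant and its untreated level, at -0.98 ± 0.15 and -0.99 ± 0.13 from untreated in double mutants and controls (limma, SE, adjusted p = 3.81e-06 and 1.18e-07). Nrp1 went past its untreated level. It gave 144.02, 150, 131.67 and 150 in double mutants at 48 h, against 129 to 173 in controls, and 34.1, 14.03, 21.0, 12.96 and 11.9 in Il10ra mutants. The 48 h change from untreated was 1.14 ± 0.33 in double mutants and 0.94 ± 0.29 in controls (adjusted p = 0.0137 and 0.0142). Pdcd1, an inhibitory immune receptor, gave 23.4, 41.1, 55.6 and 33.9 in double mutants at 48 h and 2.13 to 4.75 in Il10ra mutants, and its change from untreated was 0.02 ± 0.43. Lair1, an inhibitory receptor for collagen, gave 479, 562, 573 and 477 in double mutants and 228, 143, 184, 182 and 175 in Il10ra mutants, against 511, 546 and 609 in controls. For these 4 receptors no double mutant library overlapped an Il10ra mutant library. The low Il10ra mutant values chose the genes, and 13.8% of all genes were so separated.

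**Figure D3:**
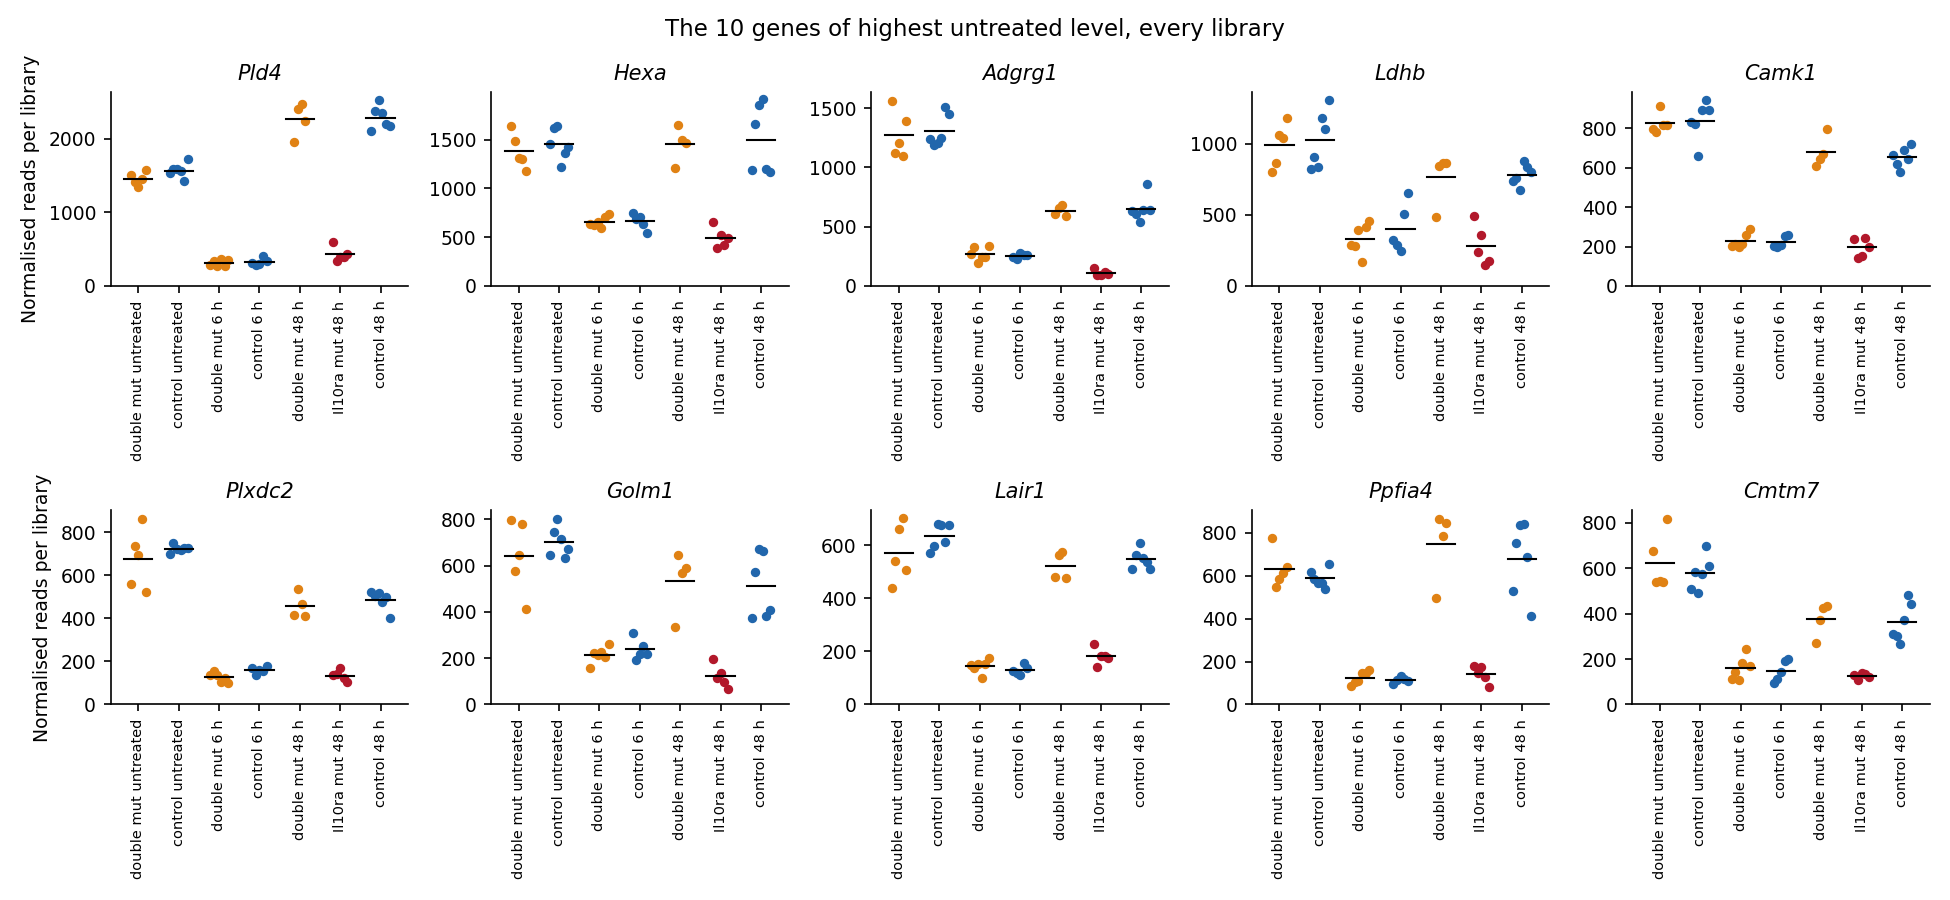
Normalised reads per library (vertical axis, linear from 0) of the 10 members with the highest untreated level, 1 panel per gene and 1 point per library, with lines at group means. Untreated, 6 h and 48 h double mutants and doubly floxed controls are shown, with Il10ra mutants at 48 h. In Pld4 the Il10ra mutants at 48 h (334 to 602), whose low values chose the genes, lie far under the double mutants (1955 to 2478).

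Of 14 signalling and cytoskeletal genes 3 were lower at 48 h in double mutants, against 6 in controls, and 0 were higher in either, where 6.86% of all genes were lower in double mutants and 9.83% in controls. Camk1, a calcium- and calmodulin-dependent kinase, gave 610, 642, 667 and 796 normalised reads in double mutants at 48 h and 241, 140, 151, 245 and 200 in Il10ra mutants, against 580, 655 and 720 in controls. Ppfia4, a scaffold of the liprin-alpha family, gave 496, 864, 783 and 847 in double mutants and 180, 145.9, 174, 130 and 82.4 in Il10ra mutants, against 411, 719 and 841 in controls. Neither gene overlapped between the mutant genotypes, as was so for 13.8% of all genes. The low Il10ra mutant values had chosen both genes. Actn1, an actin cross-linker of the alpha-actinin family, kept the lowest 48 h level of the 115 relative to untreated in double mutants. It gave 65.4, 70.9, 70.2 and 73.3 there and 28.7, 44.3, 20.2, 62.0 and 53.9 in Il10ra mutants, against 133 to 199 in untreated double mutants. No library of the 2 mutant genotypes at 48 h overlapped, with the same limit from the choice of genes. Its change from untreated was -1.18 ± 0.20 (limma, SE, adjusted p = 3.07e-05), and -0.72 ± 0.17 in controls (adjusted p = 0.00181). Next lowest were Fam110a (-1.18), Adgrg1 (-0.98), Kif21b, a kinesin (-0.97), and Fam131a (-0.95). Among those nearest to 0 were Zfp467 (-0.007 ± 0.20), Cryba4 (0.02 ± 0.21), Pdcd1 and Sdccag8 (-0.04 ± 0.25).

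Of 11 genes of transcription and chromatin, 2 were lower at 48 h in double mutants and 0 higher, and 3 lower and 1 higher in controls. Hdac5, a class IIa histone deacetylase, gave 159, 162, 164 and 178 normalised reads in double mutants at 48 h and 73.5, 35.9, 39.5, 64.8 and 35.7 in Il10ra mutants, against 89.3, 157 and 204 in controls. Mitf, a transcription factor of lysosome and melanocyte genes, gave 27.8, 37.1, 21.9 and 29.3 in double mutants and 6.39, 2.81, 1.68, 9.25 and 5.55 in Il10ra mutants. Both genes were separated between the mutant genotypes, as were 13.8% of all genes, and both had been chosen for low Il10ra mutant values. Their changes from untreated in double mutants were -0.20 ± 0.21 and 0.05 ± 0.37 (limma, adjusted p = 0.562 and 0.949). Of 6 genes of mitochondrial and small-molecule metabolism 1 was lower in each genotype. This was Idh2, the mitochondrial isocitrate dehydrogenase, at 75.5, 76.8, 73.1 and 79.0 in double mutants at 48 h, against 98.6 to 198 untreated (-0.89 ± 0.19, adjusted p = 0.000681). Between 6 h and 48 h in double mutants it differed by 0.05 ± 0.18 (adjusted p = 0.872). Ldhb, a lactate dehydrogenase subunit, gave 483, 844, 865 and 864 in double mutants at 48 h and 491, 239, 359, 150 and 176 in Il10ra mutants. Double mutant library 1 lay below Il10ra mutant library 1 there.

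Plxdc2, a membrane protein with a plexin domain, is also counted with the receptors. It gave 417, 538, 467 and 410 normalised reads in double mutants at 48 h and 138.38, 140, 167, 123 and 104 in Il10ra mutants, against 399, 502 and 522 in controls. Of the 47 genes placed in no role group, 14 were lower at 48 h in double mutants and 0 higher, against 19 and 0 in controls. Golm1, a Golgi membrane protein among them, gave 336, 644, 566 and 589 in double mutants and 198, 115.6, 135, 99.0 and 68.9 in Il10ra mutants, against 375, 490 and 670 in controls. Cmtm7, a membrane protein with a MARVEL domain, gave 270, 370, 423 and 434 in double mutants and 129, 108.3, 140, 135 and 119 in Il10ra mutants, against 264, 340 and 481.6 in controls. No double mutant library of these 3 genes overlapped an Il10ra mutant library, whose low values chose them (13.8% of all genes were so separated). The 48 h level stayed below untreated in double mutants for Plxdc2 (-0.55 ± 0.13, limma, adjusted p = 0.0026) and Cmtm7 (-0.69 ± 0.17, adjusted p = 0.00261), and Golm1 did not pass (-0.28 ± 0.20, adjusted p = 0.393). The other genes among the 30 with the highest untreated level were Ypel3, Itga6, Kif21b, Dock8, Cryba4, Hpgds, Scamp5, Zfp710, Pmp22, Myo1f, Capn3, Fbxw4, Dhrs3, Oxct1, St3gal5, Fam167b, Pla2g15, Susd3, Hdac5 and Rere.

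**Figure D4:**
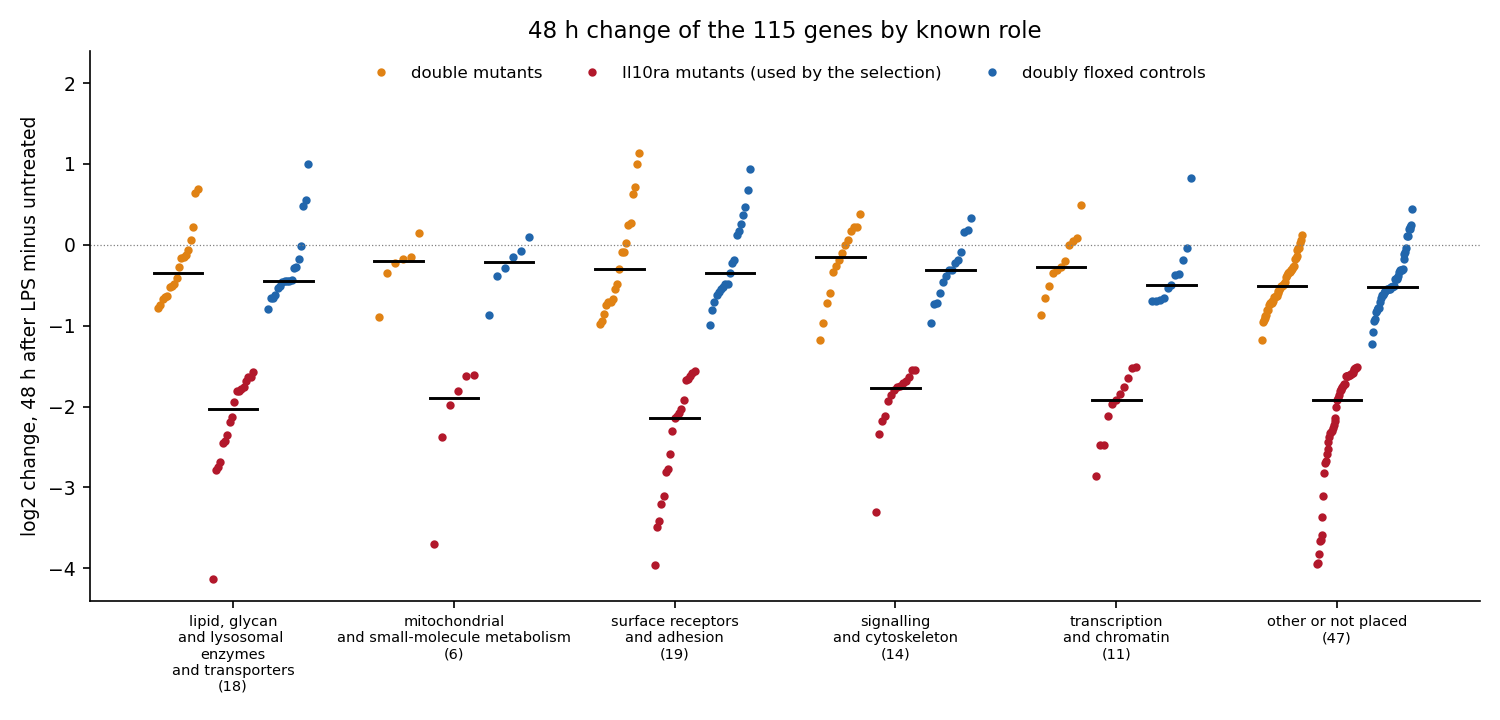
Log2 change from untreated to 48 h (vertical axis) of each member, 1 point per gene, by role group and genotype, with lines at medians. In double mutants and doubly floxed controls the median of each group lies below the untreated level, from -0.52 to -0.15. In Il10ra mutants, whose 48 h values chose the genes, the medians lie between -2.14 and -1.78.

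At 24 h, a time the choice of genes did not use, Il10ra mutants were already lower than controls. Of the 115 genes 35 were lower and 0 higher (limma, adjusted p under 0.05), with a median log2 difference of -0.79 and a range of -2.19 to 0.25, where 2.4% of all 11555 genes were lower and 1.11% higher. The difference was negative for all but 6 of the 115, and the median over all genes was -0.01. The controls were uneven. Relative to untreated controls, the median over the 115 genes was -1.92, -2.16, -0.81 and -0.94 in control libraries 1 to 4, against -1.85, -2.28, -2.18, -2.38 and -2.33 in mutant libraries 1 to 5. Control libraries 3 and 4 had partly returned and control libraries 1 and 2 lay among the mutants. For 9 genes every mutant library lay below every control library, against 1.37% of all genes.

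The 24 h calls rested on single libraries. Without control library 3 the count was 1 and without control library 4, the only control of its experiment, it was 0. Without control library 2 it was 68, without mutant library 1 it was 56, and without mutant library 2, 4 or 5 it was 21, 13 or 20. It was 0 within the second experiment alone, and 1 without the library of most neutrophil marker RNA in each group. With any 1 library left out at most 9 genes were not negative, and the medians ran from -0.99 to -0.57. Within the first experiment (3 mutant libraries and 1 control) the median was -1.32 and 105 genes were lower, and within the second (2 and 3) it was -0.46 and 101 were lower. The targeted gene Il10ra was lower at 24 h by a log2 of -3.82 (limma, adjusted p = 3.9e-12). Summed neutrophil markers ran from 17.2 to 279 normalised reads in mutants and from 23.0 to 249 in controls, monocyte markers from 45.98 to 198 and from 74.3 to 206, and border macrophage markers from 12.2 to 40.5 and from 16.6 to 89.6. Their part in the result was not tested.

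Abca9, a lipid transporter of the ABC family, had the lowest p at 24 h. It gave 25.8, 19.0, 24.4, 17.2 and 17.4 normalised reads in mutants and 29.6, 28.8, 57.7 and 83.1 in controls 1 to 4. The groups did not overlap, and the difference was -1.23 ± 0.24 (limma, SE, adjusted p = 0.00536). Stard9, a kinesin-like protein with a lipid-binding domain, gave 36.8, 40.9, 58.2, 36.8 and 40.7 in mutants and 69.0, 66.5, 73.1 and 99.0 in controls, again without overlap (-0.86 ± 0.17, adjusted p = 0.00584). Acrbp, an acrosin-binding protein gene, gave 35.9, 4.76, 3.75, 4.91 and 11.6 in mutants and 19.1, 16.6, 73.1 and 86.9 in controls. Mutant library 1 overlapped the controls there (-1.96 ± 0.40, adjusted p = 0.00649). The others of the 8 genes of lowest p were Cmtm7 and Zfp710, which ranked before Acrbp, and Abhd6, an endocannabinoid hydrolase, Lrrc3 and Ypel3, with differences from -1.15 to -1.02 and adjusted p from 0.00649 to 0.0129. By role 9 of the 18 lipid, glycan and lysosomal genes passed, with a median of -0.95, and 4 of 19 receptors, 4 of 14 signalling genes, 5 of 11 genes of transcription and 1 of 6 metabolic genes, where 2.4% of all genes were lower. These counts share the dependence on control libraries 3 and 4, without which the count over the 115 genes was 1 and 0.

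**Figure D5:**
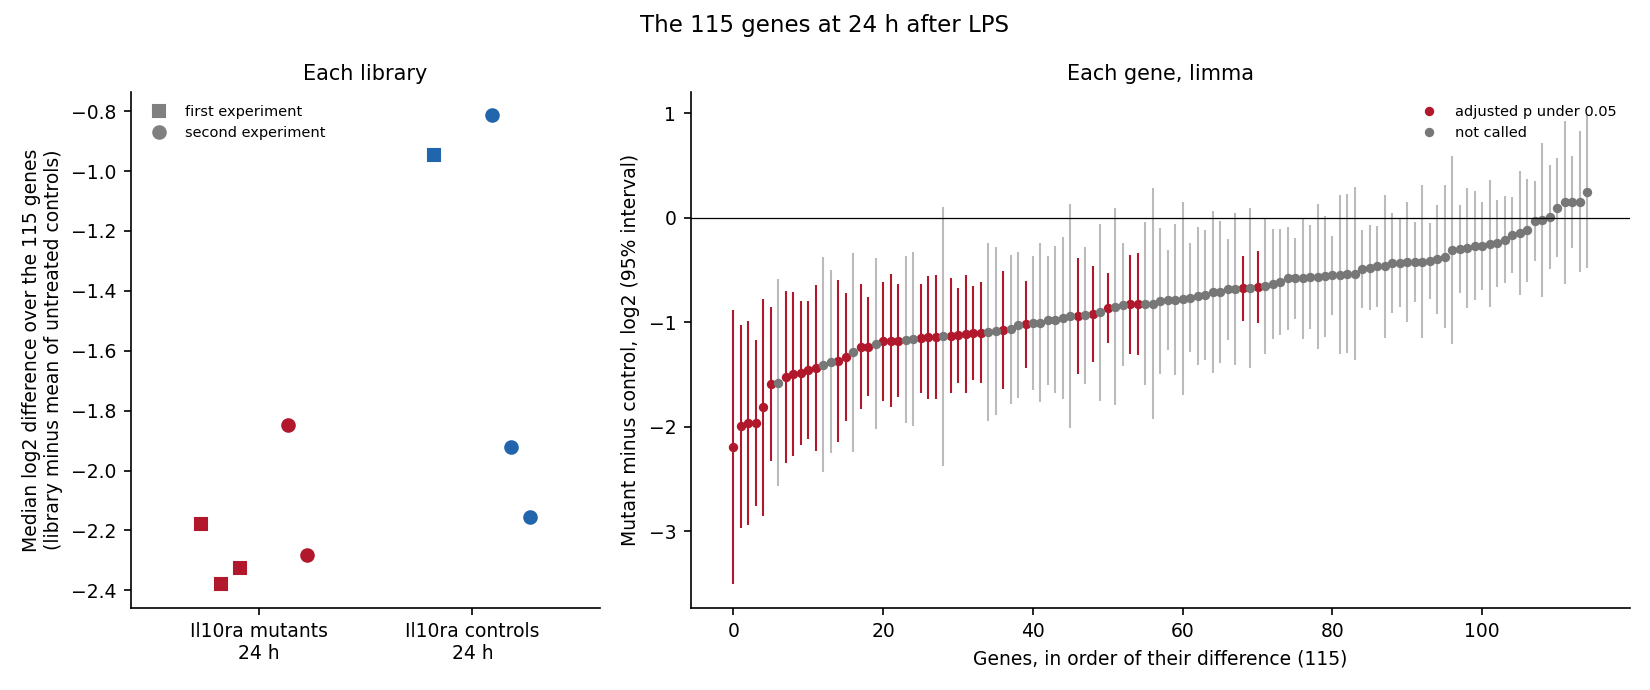
Left, median log2 difference of each 24 h library from untreated controls (vertical axis) over the 115 genes, with the marker shape giving the experiment. Right, difference between mutants and controls at 24 h of each gene in rank order (limma, log2, bars 95% confidence intervals), red where the adjusted p is under 0.05. Mutant libraries have medians between -2.38 and -1.85, and control libraries 3 and 4 reach -0.81 and -0.94.

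Other gene lists show where the rest of the microglial programme stood at the same times. Their counts at 48 h stand against 6.86% of all genes lower and 11.2% higher in double mutants. In doubly floxed controls 9.83% of all genes were lower and 13.8% higher. Of 20 homeostatic microglial genes (Adgrg1 is the only one of the 115 in this list), 16 were lower and 0 higher at 48 h in double mutants, with a median of -0.97, and 16 and 0 in doubly floxed controls, also with a median of -0.97. At 6 h 17 had been lower in double mutants and 18 in controls, where 21.5% and 21.1% of all genes were lower. Of 20 microglial transcription factor genes, 7 were lower and 2 higher at 48 h in double mutants and 11 and 1 in controls. Of 11 tested genes of the TGF-beta pathway, which maintains microglial identity, 4 were lower in double mutants and 5 in controls, and 0 were higher. Of 16 cytokine and chemokine genes 10 were higher and 1 lower in double mutants at 48 h, with a median of 1.69, and 13 and 1 in controls, with a median of 2.33. The medians of the 115 genes were -0.35 and -0.43 at that time. At 24 h the cytokine list was above controls in Il10ra mutants by a median of 1.11, with all 16 positive and 1 passing. Of all genes 1.11% were higher then. The summed list overlapped, from 10019 to 26921 normalised reads in mutants and from 2968 to 16947 in controls. The 24 h controls were uneven, and without control library 3 or 4 only 8 or 2 of all genes passed. Untreated C57BL/6 microglia lay close to untreated floxed controls for the 115 genes, with library medians between -0.09 and -0.05, although 16 genes lay below every floxed control library (3.74% of all genes) and 7 above (5.89%). The farthest was Col6a3, a collagen gene, at -2.85. The C57BL/6 libraries come from an experiment of their own, so strain and experiment cannot be told apart.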

How the data were processed

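The values were tables of normalised read signal per gene and library, used as deposited by the authors. Per the labels' protocols the libraries are MARS-seq 3' tags, and per the submitters' processing notes the build is mm10. Aligner, counting program and size-factor method were not given in the sources used here. In every table the values were whole multiples of a smallest step (100% within a tolerance of 0.01), and the whole reads so recovered were used only for edgeR 4.0.16 and DESeq2 1.42.0, as alternatives. The 6 h libraries of Il10ra mutants and controls whose step lay close to 1 (1 of each) were left out of these count tests. The tables of Il10ra mutants and of double mutants each held 18 rows named as dates, which were left out. A library with conflicting genotype labels was left out of the tests.

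A gene was kept when its value reached 5 in a number of libraries equal to the smallest group or more. The kept genes were fitted as log2(value + 1) with limma 3.58.1 (R 4.3.3) with a trend and terms for group and experiment. Benjamini-Hochberg adjustment ran over all 11800 and 11555 genes, and a call is an adjusted p under 0.05. The p-values measure the spread between libraries, which nothing in the labels says come from separate mice. The pseudocount understates the changes of low genes. Python 3.11.15, pandas 2.3.3 and matplotlib 3.10.9 made the summaries and figures. The limma fits were tried on simulated data that held no differences between experiments, unlike these data. Changes of 1 log2 were called for 71% of 100 genes between double mutants and controls at 48 h. At 24 h, between Il10ra mutants and controls, 78% were called. Changes of 2 log2 were called for 100% and 98%, and false calls were 4 and 11.

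The members and lists were chosen with earlier results of these data known. Named genes were the 30 members of highest untreated level in doubly floxed controls (10 with values by library), the 8 of lowest p at 24 h and in the difference of 48 h responses, the 5 nearest 0 and the 5 lowest in double mutants at 48 h, and genes nearest each limit. A gene among those nearest 0 is not reported here. Nrp1, Pdcd1, Hacd4, Mitf, Idh2, the genes that did not pass at 6 h and the printed promoters were chosen after their values were seen, as were the role groups.

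Nothing in the labels pairs libraries by replicate number. For doubly floxed controls at 6 h and untreated, the deviations from group means of all 5 same-numbered pairs correlated (0.13 to 0.23). Each of these pairs shares an experiment, which was not removed from the deviations, so number and experiment cannot be told apart. The replicate block moved no count there. Alternatives were TMM and quantile scaling, no filter, pseudocounts of 0.5 and 5, edgeR, DESeq2, no experiment term, a replicate block, 1 experiment alone and each library left out.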

Additional observations from a re-analysis of the deposited data

Results flagged for a closer look

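In 7 of the 84 groups of libraries examined, a library stood apart from the others of its group. Chance gives about 1 such set in 20 where sets are independent, which these are not, as they share libraries.

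Adgrg1 in doubly floxed controls at 48 h had its highest value in library 6, 860 normalised reads, while the others ran from 536 to 643. Ldhb in double mutants at 48 h had its lowest value in library 1, 483 normalised reads, and the others had 844 to 865. The median over the 115 genes in untreated double mutant library 1 stood 0.18 log2 above the mean of untreated controls, while the other untreated double mutants lay between -0.028 and -0.0035.

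At 24 h Stard9 was highest in Il10ra mutant library 3, at 58.2 normalised reads, where the other mutant libraries had 36.8 to 40.9. Mutant library 1 stood high for 3 members. Cmtm7 gave 131.5 normalised reads there and 69.8 to 79.7 in the other mutant libraries, Zfp710 gave 102.09 there and 44.1 to 53.5, and Acrbp gave 35.9 there and 3.75 to 11.6.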

How the results depend on the processing

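Over all counts and alternatives, 235 values stayed within 1.5 times of the reported one and 14 did not. In double mutants at 48 h against untreated, the 32 lower genes became 21 with no experiment term and 18 without the library of most neutrophil marker RNA in each group compared, an alternative chosen after seeing the data. In doubly floxed controls at 48 h the 41 became 22 within the shared experiment. At 24 h the 35 became 0 within the shared experiment, 23 with a replicate block and 1 without the libraries of most neutrophil marker RNA. Leaving out each library in turn gave 20 to 30 genes in double mutants and 32 to 42 in controls at 48 h, 0 for each comparison of double mutants with controls, and 0 to 68 at 24 h. At 6 h at most 4 genes, and for the rise to 48 h at most 11, then missed the threshold. With the replicate block the 48 h counts were 26 in double mutants and 28 in controls. The replicate block follows numbers alone, which nothing in the labels makes a pairing. edgeR and DESeq2 gave 41 and 42 genes in double mutants at 48 h, 51 and 52 in controls, and 41 and 52 at 24 h.

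Of the single-gene values 1878 kept their direction and side of the threshold, 80 lost the call, 8 gained it and 13 changed sign. In double mutants at 48 h against untreated, Hexa was -0.35 with quantile normalization, and within the shared experiment Hexa was -0.15, Lair1 0.088, Cryba4 -0.27 and Sdccag8 0.28. In double mutants against controls at 48 h, Hexa was -0.20, Golm1 -0.26 and Ppfia4 -0.15 within the shared experiment, and Ldhb 0.11 and Cmtm7 0.33 with the replicate block. With each 24 h library left out, Hexa ran from -0.30 to 0.0055 and Adgrg1 from -0.65 to 0.020, both highest without control library 3. Golm1 at 24 h was 0.0097 without the libraries of most neutrophil marker RNA. The cause was not tested. Few reads limit the low genes, and the 24 h comparison has 4 uneven controls.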

Other observations

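A 48 h library with a title of the doubly floxed control and a description that names the double mutant was left out of every group. Its column name holds the letters cont and the word mistake. Its median over the 115 genes was -0.50 log2 from untreated doubly floxed controls. It gave 1941 normalised reads of Pld4, 1275 of Hexa, 620 of Adgrg1, 671 of Ldhb and 535 of Camk1. It gave 266 of Tnf and 467 of Il10ra, which ran from 7.14 to 76.4 in the libraries of double mutants and from 237 to 533 in those of their controls.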
